A study of Mus musculus with 3 samples.

Results

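Axon guidance genes were read from pooled hippocampal RNA of restrained and unrestrained mice. Of 19504 genes on the array, 66 had a symbol of the semaphorin, plexin, neuropilin, Eph receptor, ephrin, Slit, Robo, netrin, netrin-G, Unc5 or Dcc families, and each was measured by 1 probe set. The rule used the symbol and no signal value. No probe set had the symbol Ephb2, Nrp1, Ntng2, Ntn3 or Sema4a, so the families are not complete here. By role, 34 encode ligands (19 semaphorins of classes 3 to 7, 8 ephrins, 3 Slits, and 3 netrins with netrin-G1) and 32 encode receptors (9 plexins with neuropilin 2, 13 Eph receptors, 4 Robos, and Dcc with 4 Unc5 receptors).

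These families steer growing axons by attraction and repulsion. Semaphorins act on plexins and neuropilins, ephrins on Eph receptors, Slits on Robos, and netrins on Dcc and Unc5 receptors, and the signal ends on the cytoskeleton of the growth cone. In the adult hippocampus many of them are still made, and they are known there for shaping dendritic spines, mossy fiber growth and synaptic plasticity. Ephrins and Eph receptors are both anchored in the cell membrane, so they signal between touching cells and in both directions.

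The study asked how serum extracellular vesicles (EVs) of exercised donors act on hippocampal expression after restraint stress. RE was the pool of 4 mice restrained for 6 h per day over 3 weeks and injected into the lateral ventricle with 20 μg of EVs whose donors had run on a wheel over 4 weeks. RS was the pool of 4 mice restrained alike and injected with 20 μg of EVs from sedentary donors, and NV the pool of 3 mice left unrestrained and given vehicle. All were male C57BL/6J mice labelled as 11 weeks old, with tissue taken 3 days after injection. The title of the NV sample speaks of vesicles and its source note of PBS, and the methods of vehicle. Some labels place the tissue in the ventral hippocampus, whereas the methods name the hippocampus without a part. Both RS and RE differed from NV in restraint and in the injected material together, so these cannot be told apart.

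The RNA of each pool went onto 1 Affymetrix array that covers whole transcripts, and the values are log2 signals. With 1 array per pool there is no replicate, no error and no p-value, and a difference is called here when 2 pools differed by 1 or more on the log2 scale, the 2-fold threshold of the study's methods. A background level of 6.01 was set from the 1450 chemosensory receptor genes on the array. The 10 measured genes of general and hippocampal excitatory neurons were above it in every pool, with a mean log2 signal of 13.10 in RE, 13.39 in RS and 12.44 in NV.

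Of the 66 guidance genes, 50 were above the background level in all 3 pools and 5 in some of them. The other 11 were below it throughout, namely Epha2, Epha8, Ntn1, Ntn4, Ntn5, Plxnb3, Robo3, Robo4, Sema3b, Sema3g and Slit2. The median log2 signal of the 66 genes was 8.19 in RE, 8.30 in RS and 8.41 in NV. Signals of different probe sets are not compared with each other here, only the same gene between pools.

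**Figure D1:**
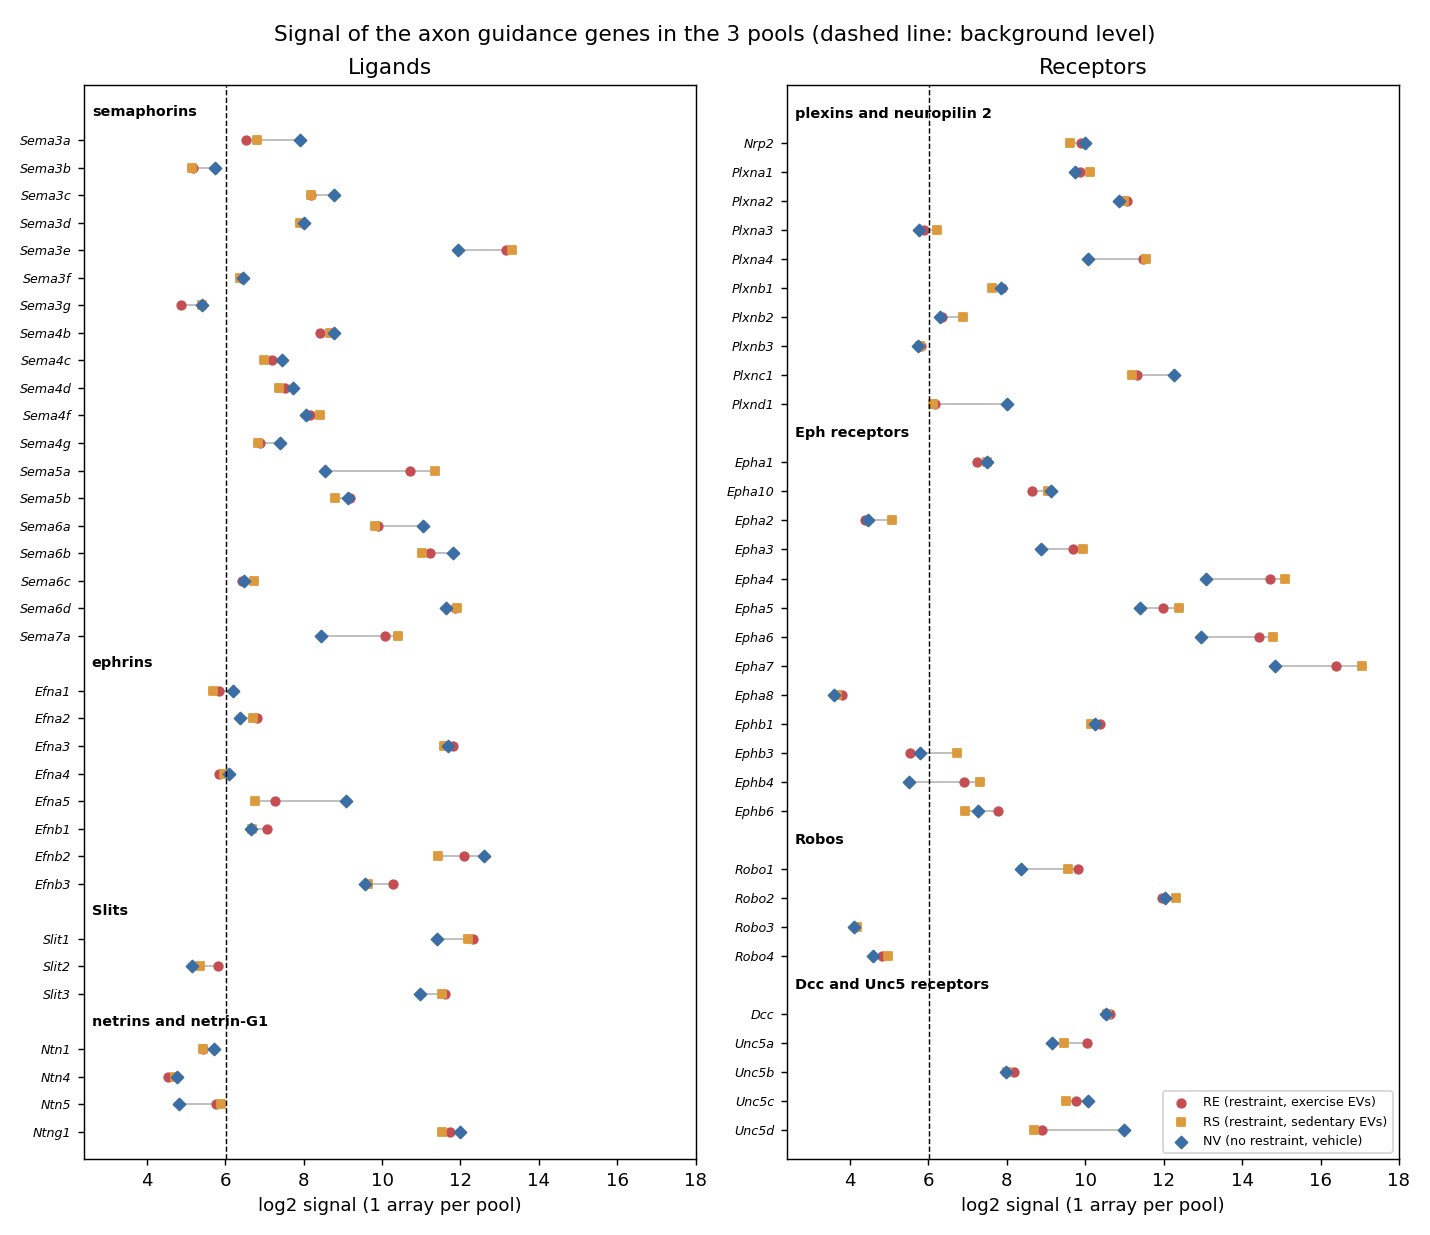
Log2 signal (x axis) of each of the 66 guidance genes (rows, by family) in RE (circles), RS (squares) and NV (diamonds), 1 array per pool, with the background level of 6.01 as a dashed line. The NV diamond lies apart from both other marks for Sema5a, Sema7a, Efna5, Plxnd1, Unc5d, Epha4, Epha6 and Epha7.

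Between RS and NV, 11 guidance genes were higher and 7 lower at the 2-fold threshold. Over all genes 3.52% were higher and 4.29% lower, against 16.7% and 10.6% of the guidance genes. Between RE and NV, 9 were higher and 5 lower (13.6% and 7.58%), beside 2.87% and 5.12% over all genes. Between RE and RS, 0 were higher and 1 was lower, beside 0.441% and 0.723% over all genes. This last balance depends on the scaling, as 86 of all genes were higher and 141 lower as deposited, but 122 and 95 after quantile normalization. The middle of the distribution stayed near 0, with a median difference from NV of 0.05 for the guidance genes and -0.06 for all genes in RE, and of 0.03 and -0.01 in RS. For RE minus RS these medians were 0.03 and -0.07. The spread was wider, as the SD of the difference from NV across the 66 genes was 0.83 for RE and 0.97 for RS, beside 0.57 and 0.57 across all genes.

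More of the guidance genes than of all genes have a clear signal, so the counts were also taken over genes whose mean of the 3 arrays was above background. Of 52 such guidance genes, 17 (32.7%) passed the threshold either way for RS against NV, beside 7.79% of the 11142 such genes of the array. For RE against NV it was 14 (26.9%), beside 6.87%, and for RE against RS 1 (1.92%), beside 0.673%. That 1 gene, Ephb3, has a mean barely above background and owes it to its RS value, so nothing is read from the last share. RS against NV and RE against NV share the NV array, so their counts are not independent of each other. Genes are not replicates, and these shares describe 3 arrays.

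**Figure D2:**
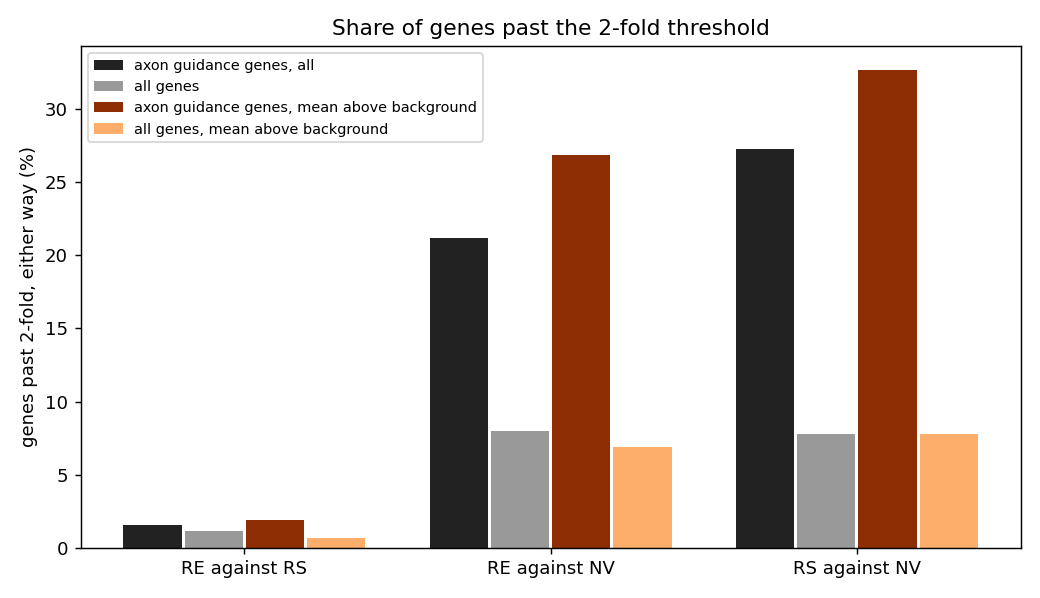
Share of genes (y axis, percent) past the 2-fold threshold in either direction in each comparison (x axis), for the guidance genes beside all genes, and for both limited to genes with a 3-array mean above background. In RS against NV the bars stand at 27.3% for the 66 guidance genes and 7.80% for all genes, and in RE against RS at 1.52% and 1.16%.

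Marker genes of hippocampal parts, neighbouring regions and cell types also differed between the pools. Of 14 dentate granule cell genes 9 were above NV by 2-fold in RS and 0 below, with a mean log2 signal of 9.70 in RE, 10.05 in RS and 8.36 in NV. Of the 10 excitatory neuron genes 4 were above NV in RE and 3 in RS, and 0 below it in either. Of 11 ventral hippocampus genes 10 were below NV in RS, with means of 10.69 in RE, 9.93 in RS and 11.67 in NV, and 4 were higher in RE than in RS, with every one of the 11 above background. Of 11 dorsal midbrain and other subcortical genes, 5 of them below background throughout, 6 were below NV in RS, with means of 5.30 in RE, 5.31 in RS and 6.84 in NV. For RE the counts were 9 of the dentate genes above NV, and 6 of the ventral and 6 of the midbrain genes below it. Of 11 oligodendrocyte genes 5 were above NV in RS, with means of 11.96 in RE, 11.98 in RS and 11.10 in NV. Counts above and below NV in RS were 3 and 4 of 15 for thalamus and habenula, 0 and 3 of 12 for interneurons, 1 and 0 of 10 for astrocytes, 1 and 0 of 7 for microglia, 0 and 1 of 10 for endothelium and pericytes, 0 and 4 of 10 for meninges, and 2 and 2 of 8 for choroid plexus. In the thalamus and habenula list the lower genes in RS were Tcf7l2 (-4.68), Slc17a6 (-3.3), Pou4f1 (-3.24) and Calb2 (-1.94). The higher ones were Prkcd (1.98), Ptpn3 (1.91) and Plekhg1 (1.69). Tcf7l2 was at 8.54 in RE, 8.21 in RS and 12.89 in NV, the lowest difference from NV of all genes in both pools. The mean of this list was 7.60 in RE, 7.53 in RS and 8.11 in NV. Dcn (ventral hippocampus, meninges), Calb2 (ventral hippocampus, thalamus and habenula) and Otx2 (midbrain, choroid plexus) each count in 2 lists. All were below NV by 2-fold in RS. Over all genes 3.52% were above and 4.29% below NV in RS, 2.87% and 5.12% in RE, and 0.441% were higher in RE than in RS. From lists with 1 called gene nothing is read. In pooled tissue, fewer cells of a type and less RNA per cell cannot be told apart. The part of these markers in the values of the guidance genes was not tested.

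The semaphorins held the largest positive difference of all 66 genes and differed from NV in both directions. Sema5a, a membrane-bound semaphorin with thrombospondin repeats, had a log2 signal of 10.70 in RE, 11.34 in RS and 8.55 in NV. Its difference was 2.80 between RS and NV, which is 6.95-fold, and 2.16 between RE and NV. Both restrained pools were thus far above NV, with RE the lower of them. Sema7a, the semaphorin held in the membrane by a lipid anchor, was at 10.08 in RE, 10.41 in RS and 8.45 in NV, a difference of 1.96 between RS and NV. Sema3e, a secreted repellent, was at 13.15 in RE, 13.31 in RS and 11.93 in NV, a difference of 1.38 between RS and NV and of 1.21 between RE and NV.

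Sema3a, the secreted semaphorin best known for collapsing growth cones, and the membrane-bound Sema6a had lower signals than in NV. Sema3a was at 6.52 in RE, 6.81 in RS and 7.92 in NV, with differences from NV of -1.41 in RE and -1.12 in RS. Both restrained values lie under a stricter background of 6.94, the 99th percentile of the chemosensory receptor genes, so the size is less certain. Sema6a was at 9.89 in RE, 9.83 in RS and 11.05 in NV, with -1.15 in RE and -1.22 in RS. Of the 19 semaphorins, 3 were above and 2 below NV by 2-fold in RE, and likewise 3 and 2 in RS. In each pool these are 15.8% and 10.5%, beside 2.87% and 5.12% over all genes in RE and 3.52% and 4.29% in RS. The median difference of the family from NV was -0.21 in RE and -0.11 in RS.

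The other 14 semaphorins stayed within 2-fold in every comparison. Sema6b, of the same class as Sema6a, came nearest, with a difference of -0.81 between RS and NV. The secreted Sema3c and Sema3b had -0.59 and -0.58, with Sema3b below background in all pools. The 5 class 4 semaphorins, which are membrane-bound, lay between -0.56 and 0.35 in RS against NV. Sema5b, the paralog of Sema5a, was at 9.17 in RE, 8.79 in RS and 9.13 in NV, and so did not share the difference of Sema5a.

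Among the receptors of semaphorins, RS had a higher signal of Plxna4 and a lower one of Plxnd1 and Plxnc1 than NV. Plxna4, a plexin that carries the Sema3a and Sema6a signals, was at 11.48 in RE, 11.54 in RS and 10.07 in NV, a difference of 1.47 between RS and NV and 1.41 between RE and NV. Its difference between RE and RS was -0.06. Plxnd1, the receptor of Sema3e, was at 6.17 in RE, 6.13 in RS and 8.01 in NV, with differences from NV of -1.84 and -1.88. Its values in both restrained pools were barely above background, so the size is less certain. Plxnc1, the receptor of Sema7a, was at 11.31 in RE, 11.20 in RS and 12.26 in NV, and its difference from NV was -0.95, just inside the threshold, for RE and -1.06 for RS. Plxna1, Plxna2, Plxna3, Plxnb1, Plxnb2, Plxnb3 and Nrp2 stayed within 2-fold. Of these the class B plexin Plxnb2 had the largest difference, 0.58 between RS and NV.

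The Eph receptors had the highest median of the 8 families in RS against NV, 0.94, and the next to highest in RE against NV, 0.49 after 0.65 for the Slits. Of 13 genes, 4 were above NV by 2-fold in RE and 5 in RS, and 0 were below it in either pool. The counts above NV are 30.8% in RE and 38.5% in RS, beside 2.87% and 3.52% over all genes. With 5.12% and 4.29% of all genes below NV, nothing is read from 0 of 13. Eph receptors are receptor tyrosine kinases, of which those of the A class mostly bind the lipid-anchored ephrin-As. Epha7 was at 16.39 in RE, 17.07 in RS and 14.84 in NV, which is a difference of 2.23 between RS and NV, or 4.71-fold. Epha4, which also binds ephrin-Bs and limits spine growth, was at 14.70 in RE, 15.09 in RS and 13.07 in NV, a difference of 2.01. Epha6 was at 14.43 in RE, 14.80 in RS and 12.94 in NV, a difference of 1.86.

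These 3 receptors were also more than 2-fold higher in RE than in NV, with 1.55 for Epha7, 1.62 for Epha4 and 1.49 for Epha6. Epha3 was at 9.68 in RE, 9.95 in RS and 8.88 in NV, and passed the threshold in RS with 1.06 (0.96 after quantile normalization, under the threshold) but not in RE with 0.80. Epha5 was at 11.99 in RE, 12.38 in RS and 11.40 in NV, just short of the threshold with 0.99. Epha1 and Epha10, with differences of 0.01 and -0.08 between RS and NV, did not share this direction, and Epha2 and Epha8 were below background. The 9 EphA receptors had a median difference from NV of 0.60 in RE and 0.99 in RS. The means of the dentate granule cell, excitatory neuron, oligodendrocyte and microglia lists were also above NV in both restrained pools. The part of these lists in the values of the EphA receptors was not tested.

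Among the 4 EphB receptors read here, which bind the membrane-spanning ephrin-Bs, Ephb4 was at 6.92 in RE, 7.32 in RS and 5.52 in NV. Its difference was 1.80 between RS and NV, from an NV value below background, so the size is less certain. Ephb1, at 10.37 in RE, 10.16 in RS and 10.24 in NV, differed by -0.08 between RS and NV. Ephb6, which lacks kinase activity, was at 7.77 in RE, 6.94 in RS and 7.27 in NV.

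The ephrins, the ligands of these receptors, had no gene higher at 2-fold. With 8 ephrins, and 2.87% (RE) and 3.52% (RS) of all genes above NV, nothing is read from this. Efna5, an ephrin-A that binds most EphA receptors and sets topographic maps, was at 7.27 in RE, 6.77 in RS and 9.09 in NV. Its difference of -2.32 between RS and NV, a 5.0-fold lower signal, was the most negative of all 66 genes, and it was -1.82 between RE and NV. The RS value of Efna5 lies under the stricter background of 6.94, so the size is less certain. Efnb2, an ephrin-B of vessels and synapses, was at 12.09 in RE, 11.43 in RS and 12.61 in NV. It passed the threshold in RS with -1.18 but not in RE with -0.52. The other 6 ephrins lay between -0.50, for Efna1, and 0.32, for Efna2, in RS against NV, and Efnb3 had 0.72 in RE against NV.

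Promoter sequence is shown for the 3 EphA receptors with the largest differences beside their ligand Efna5, and for Sema5a, the gene with the largest positive difference, beside the lower Sema3a. The runs are the 250 bases before the RefSeq start site, 5′ to 3′ on the strand of the gene, in build GRCm38.p6. Capitals mark each match on either strand to a GC box (GGGCGG), an E box (CANNTG), the core of the cAMP response element (TGACG) or a TATA box (TATAAA).
Epha7 (chr4:28812881-28813130, plus strand): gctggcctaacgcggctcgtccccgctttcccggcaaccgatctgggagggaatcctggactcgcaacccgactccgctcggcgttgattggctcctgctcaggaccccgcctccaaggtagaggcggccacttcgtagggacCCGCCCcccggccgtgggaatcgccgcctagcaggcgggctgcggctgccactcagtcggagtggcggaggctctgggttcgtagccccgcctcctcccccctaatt
Epha4 (chr1:77515089-77515338, minus strand): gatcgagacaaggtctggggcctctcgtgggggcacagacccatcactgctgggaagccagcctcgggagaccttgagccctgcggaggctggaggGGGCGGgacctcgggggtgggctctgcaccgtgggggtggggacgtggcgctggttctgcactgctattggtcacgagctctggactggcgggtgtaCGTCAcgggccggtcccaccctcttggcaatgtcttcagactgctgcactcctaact
Epha6 (chr16:60605532-60605781, minus strand): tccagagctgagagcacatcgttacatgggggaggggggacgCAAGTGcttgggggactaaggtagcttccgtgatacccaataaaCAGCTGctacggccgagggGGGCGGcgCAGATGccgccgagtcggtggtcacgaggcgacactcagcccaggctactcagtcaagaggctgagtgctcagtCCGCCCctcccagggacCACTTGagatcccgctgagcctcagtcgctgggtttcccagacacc
Efna5 (chr17:62881318-62881567, minus strand): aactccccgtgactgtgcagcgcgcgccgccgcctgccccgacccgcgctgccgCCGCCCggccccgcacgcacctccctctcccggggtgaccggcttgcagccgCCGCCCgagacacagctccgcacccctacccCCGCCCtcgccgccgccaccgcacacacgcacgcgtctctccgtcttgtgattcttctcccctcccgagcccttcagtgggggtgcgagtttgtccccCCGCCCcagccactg
Sema5a (chr15:32244563-32244812, plus strand): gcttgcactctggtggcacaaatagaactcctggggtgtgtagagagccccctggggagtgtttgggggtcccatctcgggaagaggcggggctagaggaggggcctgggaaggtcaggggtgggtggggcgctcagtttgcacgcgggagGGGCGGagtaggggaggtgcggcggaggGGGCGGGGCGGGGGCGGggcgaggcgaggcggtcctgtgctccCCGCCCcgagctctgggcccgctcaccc
Sema3a (chr5:13396534-13396783, plus strand): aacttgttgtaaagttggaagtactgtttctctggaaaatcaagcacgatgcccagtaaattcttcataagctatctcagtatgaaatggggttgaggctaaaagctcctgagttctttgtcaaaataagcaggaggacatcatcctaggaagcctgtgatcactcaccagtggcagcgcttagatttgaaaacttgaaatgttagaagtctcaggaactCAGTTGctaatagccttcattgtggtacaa

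In these runs Sema5a held 5 GC boxes, some of them overlapping, Efna5 held 4, Epha6 held 2 and Epha7 and Epha4 held 1 each, whereas Sema3a held 0. The GC content was 74.8% for Efna5, 72.0% for Sema5a, 69.2% for Epha7, 66.0% for Epha4 and 62.8% for Epha6, and 40.8% for Sema3a. RefSeq entries were at hand for 56 of the 66 genes, and the start site farthest upstream was used for each. Of these 56, 73.2% held a GC box, 48.2% an E box, 12.5% the response element core and 3.57% a TATA box. Over 27025 promoters of that length, noncoding genes included, the shares were 33.0%, 66.1%, 17.8% and 13%. The median GC content was 64.6% for the guidance genes and 52.0% for all promoters. It was 63.4% for the 10 guidance genes with an entry whose signal was above NV by 2-fold in RS, and 68.8% for the 5 below it. A GC box was found in 7 of those 10 and in 4 of those 5. A match is a description of the sequence only.

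**Figure D3:**
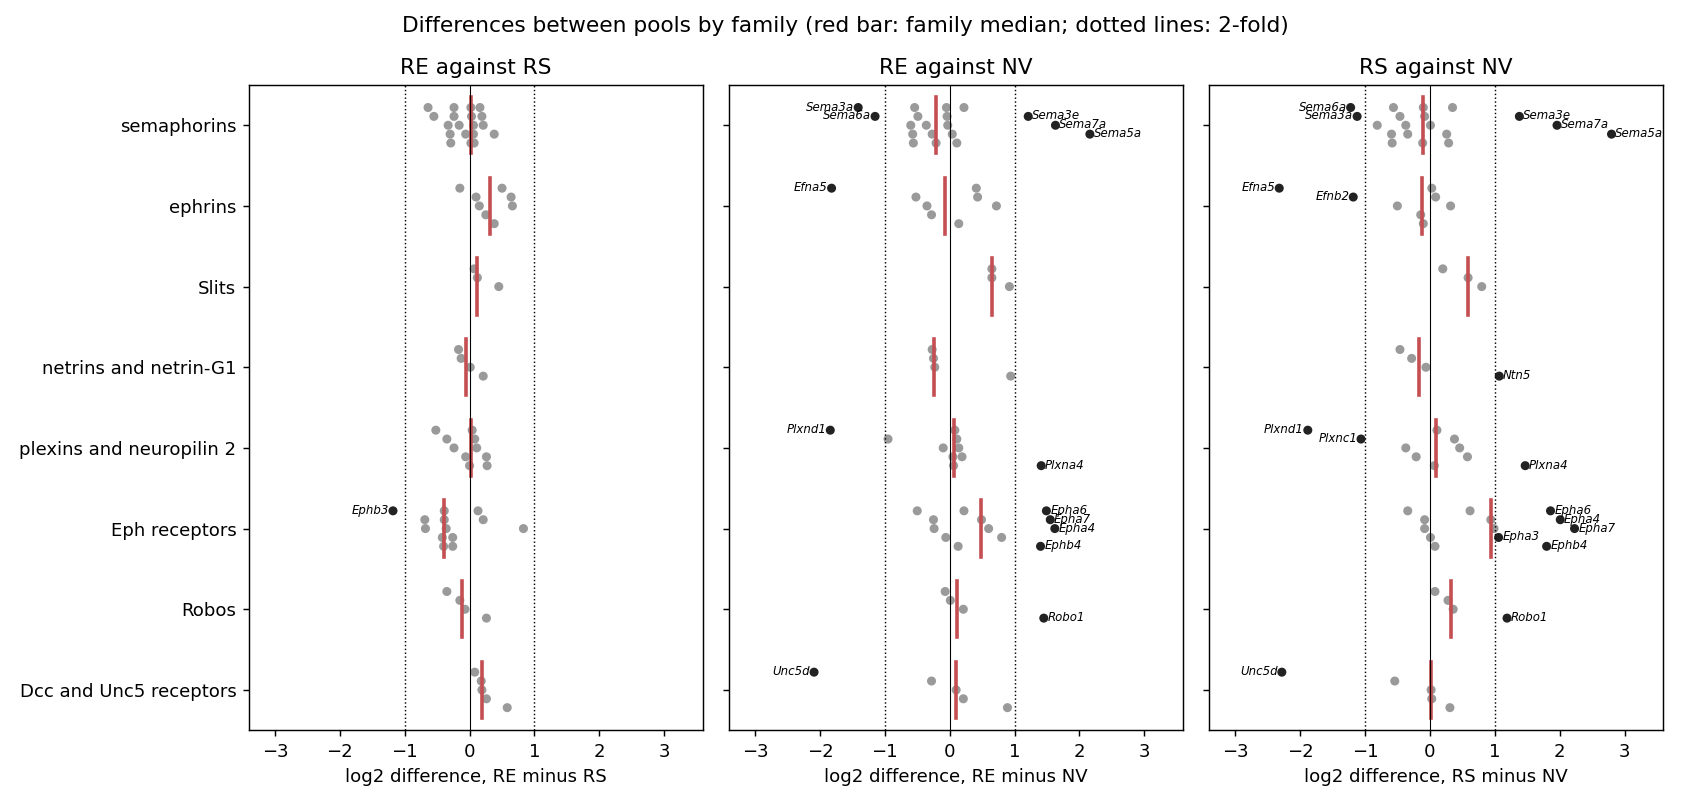
Log2 difference (x axis) of each guidance gene by family (rows) for RE minus RS, RE minus NV and RS minus NV, 1 point per gene, with the family median as a red bar and the 2-fold threshold as dotted lines. Genes past the threshold are black and named, and the Eph receptor median lies at -0.39, 0.49 and 0.94 in the 3 panels.

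Slits and Robos form another ligand and receptor system, which repels axons from the midline. Robo1 was at 9.81 in RE, 9.56 in RS and 8.37 in NV, so that it was higher than NV in both restrained pools, by 1.45 in RE and 1.19 in RS. Robo2 was at 11.96 in RE, 12.31 in RS and 12.03 in NV, and Robo3 and Robo4, the Robo of vessels, were below background. Slit1 was at 12.32 in RE, 12.20 in RS and 11.40 in NV, with differences from NV of 0.92 and 0.80 that stayed under the threshold. Slit3 had 0.65 and 0.59, and Slit2 was below background. The median difference from NV over the 3 Slits was 0.65 in RE and 0.59 in RS.

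Of the netrin receptors, the dependence receptor Unc5d passed the threshold. It was at 8.89 in RE, 8.70 in RS and 10.98 in NV, and so 4.25-fold lower in RE and 4.84-fold lower in RS than in NV (-2.09 and -2.28 on the log2 scale). Unc5d is also a receptor of the adhesion protein Flrt2, which was at 11.24 in RE, 11.55 in RS and 10.92 in NV. Dcc, the attractive netrin receptor, had nearly the same signal in all pools, with 10.63 in RE, 10.55 in RS and 10.53 in NV. Unc5a was at 10.05 in RE, 9.47 in RS and 9.16 in NV, a difference of 0.89 between RE and NV. Unc5c and Unc5b had differences of -0.54 and 0.03 between RS and NV.

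Of the ligands, Ntn1 and Ntn4 were below background in every pool. Ntn5 passed the threshold with 1.07 between RS and NV, but at 5.77 in RE, 5.90 in RS and 4.83 in NV it was below background as well, so this call is uncertain. Netrin-G1 (Ntng1), a lipid-anchored relative that binds Lrrc4c and not Dcc, was at 11.73 in RE, 11.52 in RS and 11.98 in NV. Lrrc4c itself differed by 0.19 between RS and NV.

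For 6 ligands, 5 of them past the threshold and Slit1 short of it, receptors known to bind them were set side by side. These pairs were picked after the values had been seen and are not all pairs, so their directions describe these genes alone. Sema3e, Sema7a and Efna5 had differences from NV opposite in sign to those of Plxnd1, Plxnc1 and of Epha3, Epha4, Epha6 and Epha7 in both restrained pools, although Plxnc1 (-0.95) and Epha3 (0.80) stayed under the threshold in RE. The same held for Sema6a and Plxna4, while Plxna2, which also binds Sema6a, differed by 0.11 between RS and NV. Among the other EphA receptors Epha1 (0.01) and Epha10 (-0.08) were near 0 in RS against NV. Efnb2 was below NV and Ephb4 above it in RS, with Efnb2 under the threshold in RE (-0.52). In RS against NV Ephb3 had 0.94, with RS alone above background. Ephb1 (-0.08) was near 0 there and Ephb6 (-0.34) had the sign of Efnb2. In RE against NV Ephb3 had -0.24, Ephb1 0.13 and Ephb6 0.49. Robo2 differed from NV by 0.28 in RS and -0.07 in RE, while Slit1 and Robo1 both had positive differences from NV. So had Sema5a and, at 0.38 and 0.46 in RS against NV, Plxna1 and Plxna3, which are some of the plexins that bind it. In RE against NV Plxna1 and Plxna3 had 0.14 and 0.11, and Plxna3 was above background in RS alone. Plxna2 and Plxnb3 were near 0, with 0.11 and 0.07 in RS against NV and Plxnb3 below background in all pools. An mRNA signal of a whole tissue pool does not tell which cells carry ligand or receptor.

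**Figure D4:**
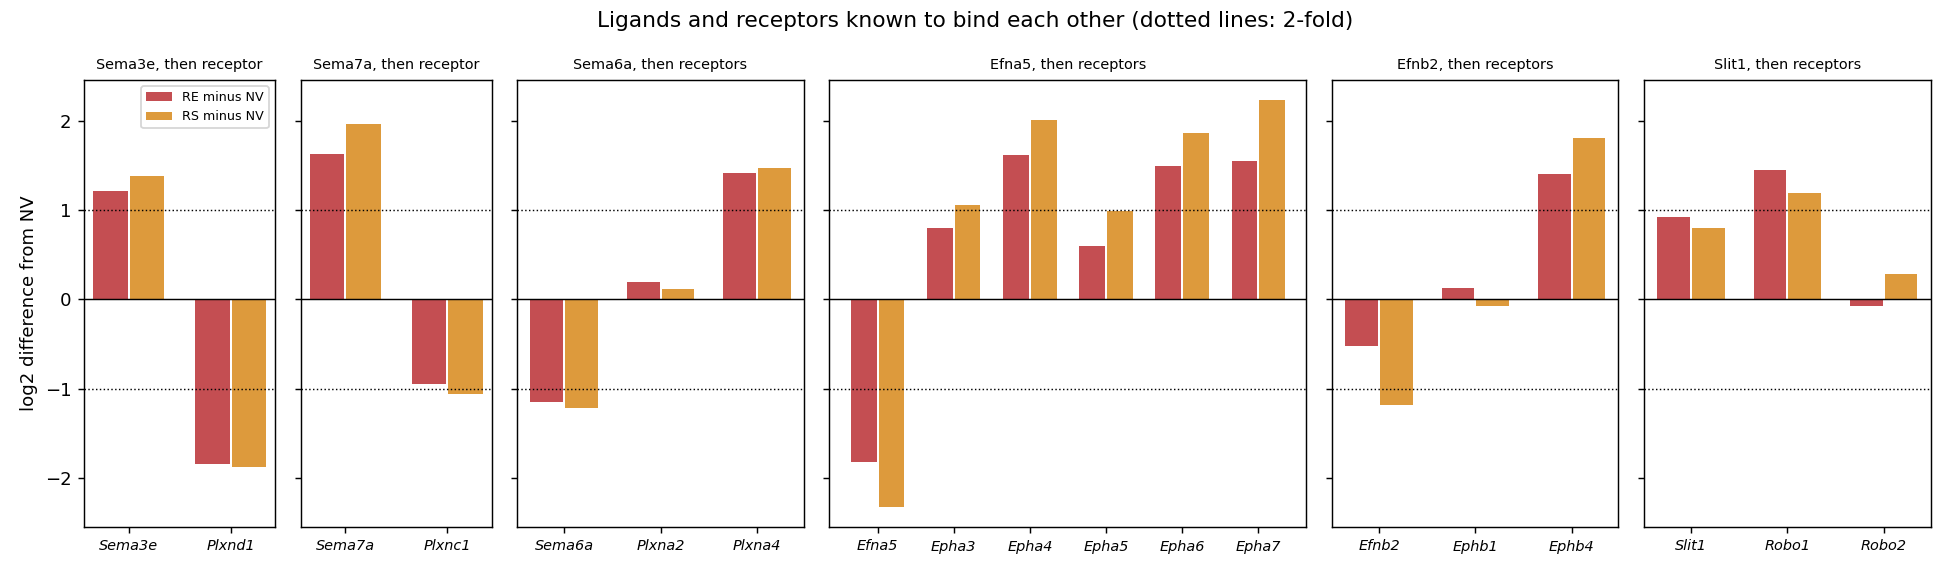
Log2 difference from NV (y axis) of 6 ligands, each followed by some receptors it is known to bind (x axis; pairs picked after the values were seen), for RE minus NV (left bars) and RS minus NV (right bars), with dotted lines at 2-fold. Sema3e and Sema7a stand above 0 and Plxnd1 and Plxnc1 below it. Efna5 stands at -1.82 and -2.32 with 5 EphA receptors above 0. Slit1 and Robo1 stand on the same side, with Robo2 at -0.07 and 0.28.

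Between RE and RS the guidance genes differed little. Ephb3, a receptor of ephrin-Bs, was the 1 gene past the threshold. It was at 5.54 in RE, 6.72 in RS and 5.78 in NV, so that RS alone was above background, and its difference was -1.18. The next were Ephb6 with 0.83, Epha7 with -0.69, Epha2 with -0.68 at values below background, and Efnb2 with 0.66. After quantile normalization Epha7 had only -0.31, whereas Ephb6 had 0.85 and Efnb2 0.73. Efnb3, an ephrin-B, had 0.64, with 10.28 in RE, 9.64 in RS and 9.56 in NV, and Sema5a had -0.64. Unc5a had 0.58 and Efna5 had 0.50.

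By family, the Eph receptors had a median difference of -0.39 (-0.24 after quantile normalization), with 10 of 13 below 0, and the ephrins one of 0.31, with 7 of 8 above 0. The 5 Dcc and Unc5 receptors and the 3 Slits were all above 0, with medians of 0.19 and 0.12. Over all genes the median was -0.07, and 11408 of 19504 differences were below 0. Semaphorins (0.02), plexins with neuropilin 2 (0.02), netrins with netrin-G1 (-0.06) and Robos (-0.11) lay closer to the median of all genes. The RS array enters this comparison and that of RS against NV with opposite sign, so the signs in the 2 comparisons are not independent.

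Genes that work beside these families were read as 2 further lists. Of 36 co-receptors and further guidance ligands, 4 were above and 3 below NV by 2-fold in RS, with a median of 0.14. These counts are 11.1% and 8.33%, beside 3.52% and 4.29% over all genes. The chemokine Cxcl12, which guides migrating neurons, was at 10.01 in RE, 9.95 in RS and 8.56 in NV. Islr2, a membrane protein of growing axons, was at 8.56 in RE, 8.17 in RS and 6.98 in NV. Cdon, a co-receptor of hedgehog signals, differed by 1.03 between RS and NV, and Cxcr4, the receptor of Cxcl12, by 1.0 at values below background.

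On the lower side were the adhesion molecules Cntn6, at 8.85 in RE, 8.58 in RS and 10.26 in NV, and L1cam, at 10.49 in RE, 10.20 in RS and 11.34 in NV. Draxin, a repellent that binds Dcc, had -1.02 between RS and NV at values below background. In RE against NV, 2 of the 36 were higher (Islr2 and Cxcl12) and 1 lower (Cntn6). These counts are 5.56% and 2.78%, beside 2.87% and 5.12% over all genes. In RE against RS 0 were higher or lower, beside 0.441% and 0.723% over all genes.

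Of 59 intracellular effectors listed, 54 were measured, and in RS 2 were above and 3 below NV by 2-fold, with a median of 0.13. These counts are 3.7% and 5.56%, beside 3.52% and 4.29% over all genes. Kalrn, which acts downstream of EphB receptors in spines, was at 13.81 in RE, 14.32 in RS and 12.32 in NV. Arhgap39, whose fly homolog binds Robo, differed by 1.32 between RS and NV. The lower genes were the adaptor Grb10 with -1.55, the GTPase Rnd1, which acts on plexins, with -1.31, and Dpysl5, a collapsin response mediator, with -1.19. Of these, Kalrn (1.5) and Dpysl5 (-1.28) also passed the threshold in RE against NV. That is 1.85% higher and 1.85% lower, beside 2.87% and 5.12% over all genes. In RE against RS 0 of the 54 passed it, beside 0.441% higher and 0.723% lower over all genes.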

How the data were processed

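Pooled hippocampal RNA of 3 groups of mice was read on 3 Affymetrix arrays. The authors deposited log2 signals of 22205 probe sets. Affymetrix Command Console is named in the study's methods, and RMA and Affymetrix Power Tools in the processing notes of the submitters, without versions. Any rescaling before the log is not stated, and 169 (RE) to 211 (RS) probe sets per array exceed 16.

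By the platform annotation 19571 probe sets had 1 symbol and 2634 none here. The probe set with the highest mean stood for its gene, which left 19504 genes. Background is the 95th percentile of 1450 chemosensory receptor genes (olfactory, vomeronasal, taste). Pools were compared by differences of log2 values with no test, and the number of arrays limits the precision. The members and lists were chosen with earlier results of these data known. Named genes were members past 2-fold and up to 3 further members per family with the largest differences, and other members were named after their values were seen. Promoters came from RefSeq (GRCm38.p6). Alternatives were centring on the median, quantile normalization, lowess removal (span 0.3), a filter on low signal, the mean of probe sets, a 1.5-fold threshold and a 99th percentile background. The scripts (Python 3.11.15 with pandas 2.3.3, numpy 2.4.6, matplotlib 3.10.9 and statsmodels 0.14.6) were tested on simulated data.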

Additional observations from a re-analysis of the deposited data

How the results depend on the processing

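All values rest on 1 array per pool, so leaving out a replicate was not possible. No paired analysis was possible because each group has 1 array. Of 618 alternative values for 43 single genes, 6 changed their side of the 2-fold threshold. The sign changed in 14, all of differences of at most 0.23 in size, and in 0 of those past 2-fold. Shifts in size alone are not in these counts. In RE against RS, Epha7 went from -0.69 to -0.31 with quantile normalization and -0.38 with lowess removal. In RS against NV, Epha3 dropped below the threshold with 0.96 after quantile normalization and 0.95 after lowess removal, while Ephb3 passed it with 1.04 after quantile normalization. In RE against NV, Ntn5 passed it with 1.0, 1.17 and 1.15 after centring, quantile normalization and lowess removal.

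At a 1.5-fold threshold 17 guidance genes were higher in RE than in NV, and 3 were higher and 4 lower in RE than in RS. The share over all genes at 1.5-fold was not taken, so nothing is read from these counts. The other counts of guidance genes at 2-fold stayed within 1.5 times of those given.

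Family medians moved by 0.1 or more in these cases. With quantile normalization they became, in RS against NV, -0.22 for semaphorins, 0.48 for Slits, -0.03 for netrins with netrin-G1 and -0.09 for Dcc and Unc5 receptors, in RE against NV 0.89 for Slits, -0.01 for netrins with netrin-G1 and 0.34 for Robos, and in RE against RS -0.24 for Eph receptors. With the lowess trend removed they were 0.48 for Slits, -0.04 for netrins with netrin-G1 and -0.10 for Dcc and Unc5 receptors in RS against NV, 0.85, -0.04 and 0.32 for Slits, netrins with netrin-G1 and Robos in RE against NV, and -0.24 for Eph receptors in RE against RS. Over genes whose higher array was above background, where fewer genes enter, they were 0.69 for Slits, -0.46 for netrin-G1 alone and 0.73 for Robos in RS against NV, -0.05 for semaphorins, 0.78 for Slits, 0.70 for Eph receptors and 0.69 for Robos in RE against NV, and 0.44 for ephrins and 0.21 for netrin-G1 in RE against RS. The cause of the other shifts was not tested.

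Over all genes, the share of higher among called genes moved with scaling. In RE against RS it was 37.9% as deposited, 54.2% centred, 56.2% with quantile normalization and 54.5% with lowess removal. In RE against NV it was 35.9% as deposited and 50.5% with quantile normalization.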
